A study of Cricetulus griseus and Cricetulus griseus
Mus musculus and Mus musculus with 202 samples.

Results

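Of 99 measured hybrid lines of the T31 radiation hybrid panel, the 19 described here carried high RNA of Serpinb9d, a mouse serine protease inhibitor. They were compared with 74 lines in which Serpinb9d stayed near the level of the hamster recipient. The lines were chosen by their Serpinb9d ratio itself: a line mean above 1 on the log2 scale (hybrid over A23, the mean of 2 arrays) put a line in the high group and a mean below 0.5 in the low group, and 6 lines fell between. The levels of Serpinb9d in these groups are therefore a description of the choice and carry no test. The high lines made up 19.2% of the measured lines and 38 of their 198 arrays, the low lines 148 and the lines between 12. Line numbers in the labels run to 100, and number 67 is absent.

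Each line of the panel is a clone made by fusing irradiated mouse cells with A23, a hamster cell line without thymidine kinase, so it keeps hamster chromosomes together with random pieces of the mouse genome. On 2-colour arrays of mouse probes, total RNA of every line was set against total RNA of A23 grown in the same serum-containing medium, with 2 arrays per line that the labels call biological replicas and that carry the dyes in opposite orientation. High and low lines share the recipient, the medium, the reference and the retention of mouse fragments, and the labels give no treatment, genotype or passage that sets them apart. A further 4 arrays set mouse against hamster RNA of whole brain and whole liver. The labels name no separate cultures behind A23, so its own spread cannot be told apart from that of the lines. The p-values measure the spread between line means, which also holds the spread of the arrays of a line.

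Serpinb9d belongs to the clade B serpins, proteins that act inside the cell or at its surface by trapping serine proteases. The human relative SERPINB9 blocks granzyme B, the killing protease of cytotoxic lymphocytes. The mouse has several copies of this gene, which lie in one cluster with the Serpinb6 genes, whose human relative inhibits cathepsin G, and the Serpinb1 genes, whose human relative inhibits neutrophil elastase. In radiation hybrids, genes that lie close together tend to be kept on the same fragment, which is the basis of mapping with such panels. Gene positions were not used here, so neighbours are genes listed from general knowledge of mouse gene order. The lists held 11 measured Serpinb genes of the cluster, 30 other near neighbours, 57 middle genes and 84 far genes of the same chromosome. Middle and far mean distance from Serpinb9d as listed, and no distance was measured.

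In the high lines the mean Serpinb9d ratio ran from 1.21 to 5.60 with a median of 3.28 (n = 19). The low lines lay between -0.89 and 0.35 with a median of -0.09 (n = 74). The lines between held 0.54 to 0.73 (n = 6). Just inside the upper limit stood line 49 at 1.21 and line 7 at 1.31, and just outside it line 88 at 0.73 and line 98 at 0.72. At the lower limit, line 9 (0.35) was just inside and line 44 (0.54) just outside.

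The arrays of some lines differed widely. In 14 of the 19 high lines Serpinb9d was above 1 in both replicas, while in lines 7, 15, 23, 49 and 85 it was above 1 in 1 replica only. Line 49 had 2.80 in replica 1 and -0.39 in replica 2, and line 23 had 3.69 and -0.10. Among the low lines, 3 had 1 array above 1. At the top, lines 87 and 48 were high in both replicas, with 5.93 and 5.27 in the former and 5.27 and 5.86 in the latter. The plot of Serpinb9d over all lines shows the arrays behind each mean, and 15 lines lay above 2.

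**Figure D1:**
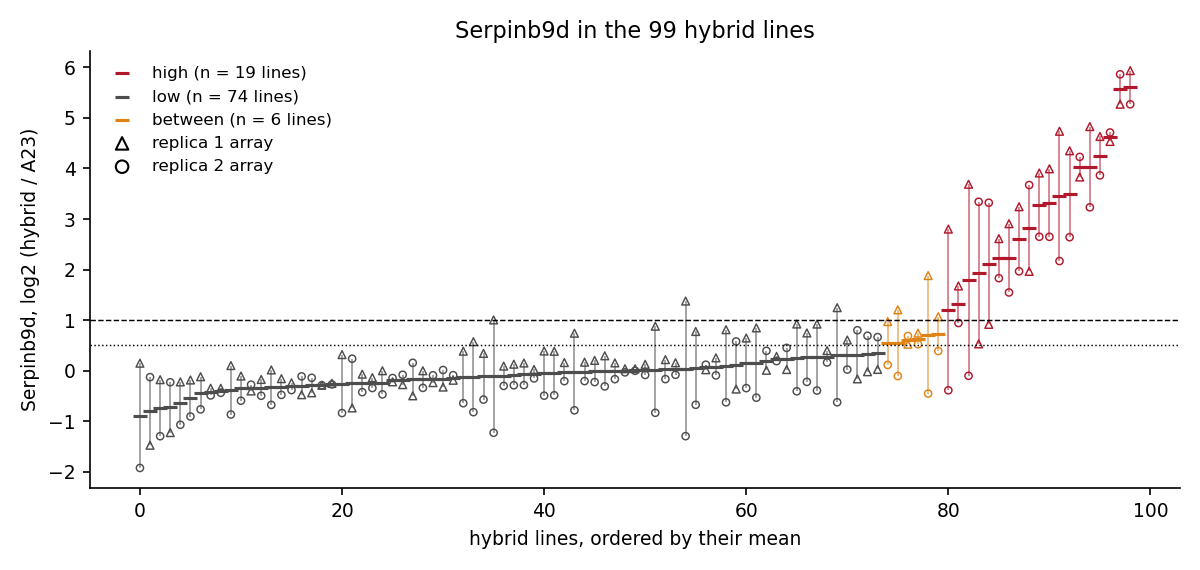
Log2 ratio of Serpinb9d (hybrid over A23, y axis) in the 99 lines ordered by their mean (x axis). Bars are line means coloured by group, triangles and circles are the replica 1 and replica 2 arrays, and the dashed and dotted lines are the limits of 1 and 0.5. The 74 low lines stay between -0.89 and 0.35, the 19 high lines reach 5.60, and the arrays of lines 49 and 23 lie far apart.

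Mouse tissues gave no higher signal on this probe than hamster tissues did. The ratio of mouse over hamster for Serpinb9d was -0.59 and -0.82 in the 2 brain arrays and -0.28 and -0.35 in the 2 liver arrays. A ratio holds no level, so whether the gene was expressed in these tissues, or whether the lines express markers of any cell type, cannot be read from it.

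When all other genes were compared between high and low lines, RNA of 13 genes was higher in the high lines and of 0 genes lower. This was 0.0788% and 0% of the 16503 genes tested with limma at a Benjamini-Hochberg adjusted p under 0.05, on 1 mean per line. Of the 13 genes, 8 were other Serpinb genes of the cluster and 3 were listed near neighbours outside the family, Eci2, Nqo2 and Pxdc1. Acot13 came from the middle list, and Ccdc86 was in none of the lists. With single arrays, dye orientation as a term and line as a random block, 19 genes were higher and 3 lower, 12 of them near neighbours. That fit used the same correlation for all genes, 0.0411, so it treated the arrays of a line as nearly independent. At an unadjusted p under 0.05, 4.71% of genes were higher and 4.58% lower. In bulk RNA, a higher ratio from more cells that keep a fragment and one from more RNA per cell cannot be told apart.

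Serpinb9g, another Serpinb9 copy of the cluster, had the largest difference of all genes tested. Its ratio in the high lines was -1.10 at the lowest, 3.98 at the median and 6.36 at the highest, against -1.07, 0.23 and 3.67 in the low lines. The difference was 3.68 ± 0.28 (log2, SE, n = 19 and 74 lines), a 12.8-fold change, with an adjusted p of 3.7e-19 from limma. In 18 of 19 high lines it was above 1, and 12 high lines lay above every low line. The groups overlapped through line 23, the lowest high line, and through low lines 13 and 14. Both of these low lines, at 3.67 and 3.33, rested on a replica 1 value of 6.64, the largest ratio the deposited scale can hold there, while their replica 2 arrays read 0.69 and 0.02.

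The remaining Serpinb9 copies differed in how strongly and how clearly they rose. Serpinb9b ran over -0.50, 2.27 and 4.67 (lowest, median, highest) in the high lines and -3.32, 0 and 3.33 in the low lines. Its difference was 2.21 ± 0.30 (log2, SE), 4.62-fold, with an adjusted p of 1.5e-07. Because 60.6% of its deposited values were exactly 0 and 6 lay at the limit of the scale, its group values rest on fewer measured arrays than those of the other copies, and the gene could not be tested once zeros were removed.

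For Serpinb9, the mouse gene nearest to human SERPINB9, the high lines held -1.67, 1.44 and 4.05 and the low lines -1.20, 0 and 1.90. Serpinb9 had exactly 0 in 22.7% of its deposited values, and 1 value lay at the limit of the scale. It rose by 1.43 ± 0.21, 2.70-fold, with an adjusted p of 1.8e-06, and exceeded 1 in 13 of 19 high and 7 of 74 low lines. On replica 1 arrays alone it did not pass (1.23, adjusted p = 0.248). Serpinb9e had a smaller but even difference: -0.01, 0.87 and 2.44 in the high lines against -0.76, -0.06 and 1.01 in the low lines. Its difference of 0.94 ± 0.10 was 1.91-fold with an adjusted p of 1.7e-11, and all 19 high lines lay above the median of the low lines. Serpinb9c did not pass the test (0.08 ± 0.40, adjusted p = 0.947) and turned to -0.14 when arrays were scaled to equal spread. Its ratio was low in both groups, with means of -1.22 and -1.30.

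All 3 measured Serpinb6 copies rose. Serpinb6a ran over -0.57, 1.85 and 3.68 in the high lines and -2.03, 0.31 and 2.46 in the low lines, a difference of 1.63 ± 0.24 (3.10-fold, adjusted p = 2.6e-06). Serpinb6c ran over 0.14, 1.55 and 3.25 against -1.22, 0.21 and 1.95, a difference of 1.23 ± 0.18 (2.35-fold, adjusted p = 1.4e-06). Both overlapped broadly with the low lines, of which 14 and 12 also lay above 1. Serpinb6b was below 1 in all low lines but 1, with -1.27, -0.04 and 1.13 there and -1.03, 0.82 and 2.51 in the high lines. Its difference was 0.91 ± 0.13 (1.88-fold, adjusted p = 9.5e-07).

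Of the Serpinb1 copies, 1 of 3 passed. Serpinb1b passed with the smallest difference of all called genes, 0.32 ± 0.06 (1.25-fold, adjusted p = 1.7e-04), and no line of either group reached 1. On replica 2 arrays alone it did not pass (0.25, adjusted p = 0.767). Its high lines held -0.17, 0.21 and 0.98 and its low lines -0.47, -0.09 and 0.32. Serpinb1a (0.11 ± 0.10, adjusted p = 0.688) and Serpinb1c (0.09 ± 0.13, adjusted p = 0.789) did not pass, and both turned negative, to -0.06 and -0.04, when arrays were scaled to equal spread. Over the 11 measured cluster genes the median difference was 0.94, against -0.01 over all genes tested. The 8 measured Serpinb genes that lie in the family's other cluster, such as Serpinb2 and Serpinb5, gave 0 calls in either direction, 0 genes at an unadjusted p under 0.05 and a median of -0.17. Probe sequences were not used here, so how far a probe of one Serpinb copy also bound RNA of another was not tested.

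Outside the serpin family, 3 of 30 listed near neighbours rose, and none of the 3 passed on replica 2 arrays alone. Eci2, an isomerase of unsaturated fatty acid breakdown, held -1.05, 0.99 and 2.06 in the high lines and -0.59, 0 and 1.12 in the low lines. It rose by 0.81 ± 0.10 (1.75-fold, adjusted p = 2.0e-08) and was above 1 in 9 of 19 high lines but in 1 of 74 low lines. On replica 2 alone the difference was 0.49 (adjusted p = 0.314), against 1.12 on replica 1. In the tissues, mouse over hamster was 2.78 and 0.89 in the brain arrays and 5.17 and 1.70 in the liver arrays.

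Nqo2, a quinone reductase, held -2.08, 1.16 and 2.69 in the high lines and -1.35, -0.02 and 3.19 in the low lines. Its difference was 1.06 ± 0.18 (2.08-fold, adjusted p = 1.2e-04), with 12 of 19 high and 2 of 74 low lines above 1, and on replica 2 alone it was 0.92 (adjusted p = 0.314). Single arrays set both extremes: high line 49 read 1.56 and -5.72 in its replicas, and low line 14 read 6.64, at the limit of the scale, and -0.27. Pxdc1, a protein with a phosphoinositide-binding PX domain, held -0.55, 0.70 and 1.68 against -0.61, 0.06 and 0.69. Though its difference was only 0.56 ± 0.09 (1.47-fold, adjusted p = 1.1e-04), 10 high lines lay above every low line. On replica 2 alone it was 0.43 (adjusted p = 0.0561).

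**Figure D2:**
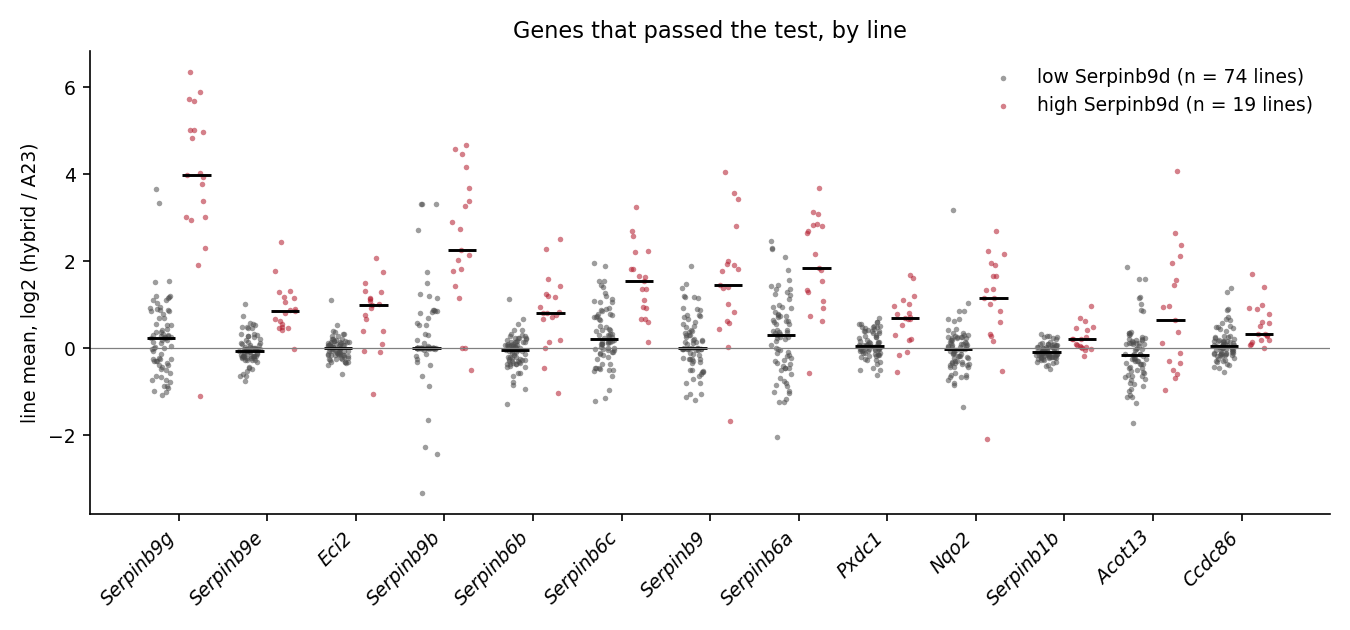
Line means (log2, hybrid over A23, y axis) of the 13 genes that passed the test (x axis), with 74 low lines in grey and 19 high lines in red. Points are lines and horizontal bars are group medians. The median of the high lines lies above that of the low lines for each gene, and the groups overlap for each gene.

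The groups overlapped for every gene: 0 of 16503 genes separated all 19 high lines from all 74 low lines. Of the 30 measured near neighbours outside the family, 3 rose and 0 fell. Before adjustment, 7 were higher and 1 was lower at a p under 0.05, where 4.71% of all genes were higher and 4.58% lower. The median difference of the 30 was 0.13. Ssr1, a subunit of the translocon-associated complex, came nearest to the threshold among those that did not pass, with 0.99 ± 0.26 and an adjusted p of 0.253. It passed with line as a random block (adjusted p = 0.0069), with array weights (adjusted p = 0.0247) and with Serpinb9d as a continuous term (adjusted p = 0.0025). The block fit treated the arrays of a line as nearly independent, so its p-value rests on more than 1 value per line. The transcription factors Foxf2 (0.40 ± 0.16) and Foxc1 (0.45 ± 0.20) had adjusted p-values of 0.501 and 0.524. Differences near 0 were measured for Dsp (0.02 ± 0.15), a desmosome protein, and Tubb2b (0.06 ± 0.16), a tubulin. Over these 30 genes the differences ran from -0.23 to 1.06, so listed neighbours differed widely among themselves.

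At greater listed distance from Serpinb9d, 1 of 57 middle genes rose. Before adjustment 5 of the 57 had a p under 0.05 with a higher and 2 with a lower mean, and the median difference was -0.04. For the 84 far genes these counts were 0, 6 and 0, with a median of 0.02. Over all genes, 4.71% were higher and 4.58% lower before adjustment. Acot13, an acyl-CoA thioesterase, was the middle gene that rose. Its values ran over -0.96, 0.65 and 4.07 in the high lines and -1.72, -0.15 and 1.87 in the low lines, a difference of 0.94 ± 0.21 (1.92-fold, adjusted p = 0.041). It was above 1 in 7 high lines and 6 low lines, and line 78 alone held 5.42 and 2.71 in its replicas. Leaving out any 1 of the high lines 15, 22, 41, 49, 72, 78, 80, 87 or 99 ended the call, with adjusted p-values over all such omissions from 0.00681 to 0.245.

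**Figure D3:**
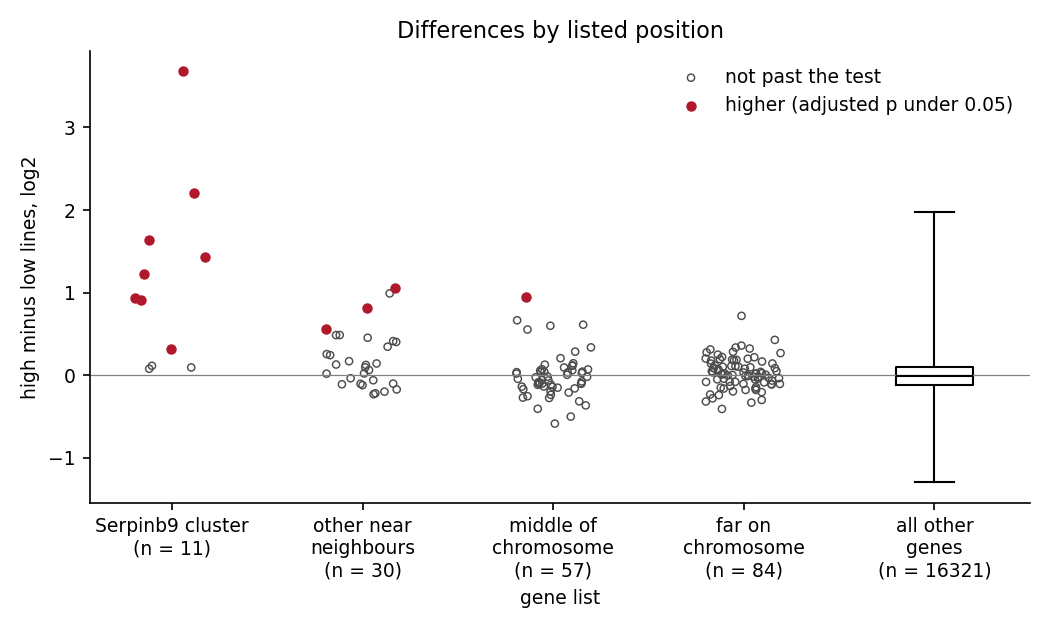
Difference of each gene between high and low lines (log2, y axis) by listed position (x axis), with filled points for genes at an adjusted p under 0.05 and open points for the others. Middle and far mean listed distance from Serpinb9d. The box for all other genes gives their quartiles and the whiskers their full range, from -1.30 to 1.98. The 8 called cluster genes lie between 0.32 and 3.68, while the middle and far genes centre on 0, and the 3 cluster genes near 0 turn negative when arrays are scaled.

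Of the 16321 genes in none of these lists, 1 rose and 0 fell, while before adjustment 751 stood higher and 753 lower at p under 0.05. The lists do not hold every gene of the chromosome, so some of the 16321 may lie on it. Among features without a single gene symbol, 0.0324% passed. Ccdc86, which encodes a nucleolar coiled-coil protein, ran over 0.00, 0.34 and 1.72 in the high lines and -0.54, 0.05 and 1.39 in the low lines. Its difference of 0.44 ± 0.10 (1.35-fold) had an adjusted p of 0.041, and 2 lines of each group were above 1. Omitting any 1 of lines 23, 41, 48, 49, 72, 80, 85, 87 or 99 ended this call, with adjusted p-values from 0.0188 to 0.211, as did scaling the arrays. Larger differences that did not pass included Serinc1, a serine-incorporating membrane protein, at 1.98 ± 0.51 (adjusted p = 0.179).

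Lists of genes for other processes gave no call. Over all genes tested 0.0788% were called higher and 0% lower, so 0 calls in lists this short say little about these processes. Before adjustment 4.71% of all genes were higher and 4.58% lower. None of the 19 measured genes of cytotoxic granules rose or fell (0 and 0, with 1 higher and 3 lower before adjustment), nor did any of 29 apoptosis genes (0 and 0, with 1 and 0). Of 22 NF-kB genes, 4 were higher and 1 was lower before adjustment and the median was 0.17, with Ccl2, a chemokine, at 0.84 ± 0.38 (adjusted p = 0.526) and 0 calls. The difference was above 0 for 19 of these 22 genes, and for 7967 of all 16503 genes. For 22 interferon-response, 43 DNA replication, 30 mitosis, 30 matrix and 11 tubulin genes there were 0 calls, and medians lay between -0.02 and 0.02. Before adjustment their higher and lower genes numbered, in this order, 1 and 0, 2 and 1, 3 and 1, 2 and 0, and 0 and 0. Markers of blood (15), epithelial (15), fibroblast (12) and pluripotent or trophoblast cells (10) likewise gave 0 calls, with medians from -0.09 to 0.02. Higher and lower markers before adjustment numbered, in this order, 0 and 2, 0 and 2, 1 and 0, and 0 and 0. Tk1, the thymidine kinase gene kept by selection in such panels, averaged 1.73 in the high lines and 1.84 in the low lines and was above 1 in 17 of 19 and 62 of 74, with a difference of -0.11 ± 0.20 (adjusted p = 0.846).

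Read by line, several of the 11 called near genes were above 1 in most high lines, but seldom all of them. The number of them above 1 ran from 1 to 10 with a median of 6 in the high lines, from 0 to 3 with a median of 0 in the low lines, and from 1 to 2 in the lines between. At least 3 were above 1 in 18 of 19 high lines, 5 of 74 low lines and 0 of 6 lines between. Lines 48, 78, 80 and 87 each had 10 of the 11 above 1. These counts describe genes already called in the same lines.

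Line 23 stood apart from the other high lines. Its Serpinb9g was -1.10, Serpinb9 -1.67, Serpinb6b -1.03 and Nqo2 -0.52, and Eci2, at 1.14, was the single near gene above 1. Its arrays were far apart for Serpinb9d, as given above, and for Eci2 too (2.54 and -0.26). The same held for Serpinb9 (-4.49 and 1.15), Serpinb6b (0.13 and -2.19), Nqo2 (-1.24 and 0.20) and Serpinb9g (-2.20 and exactly 0). The low means of line 23 thus rest on arrays that differ. In line 86, by contrast, the arrays were close for Serpinb9d (2.61 and 1.83) while Eci2 (-0.07) and Pxdc1 (-0.16) stayed near 0 and Serpinb9b reached 4.46. Line 72 was the high line with the lowest Serpinb9b, at -0.50, although its Serpinb9g was 3.98. Leaving out line 23 ended the call for 1 of the 13 genes, Ccdc86, and for none of the 11 near genes, and Serinc1 was then called higher.

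**Figure D4:**
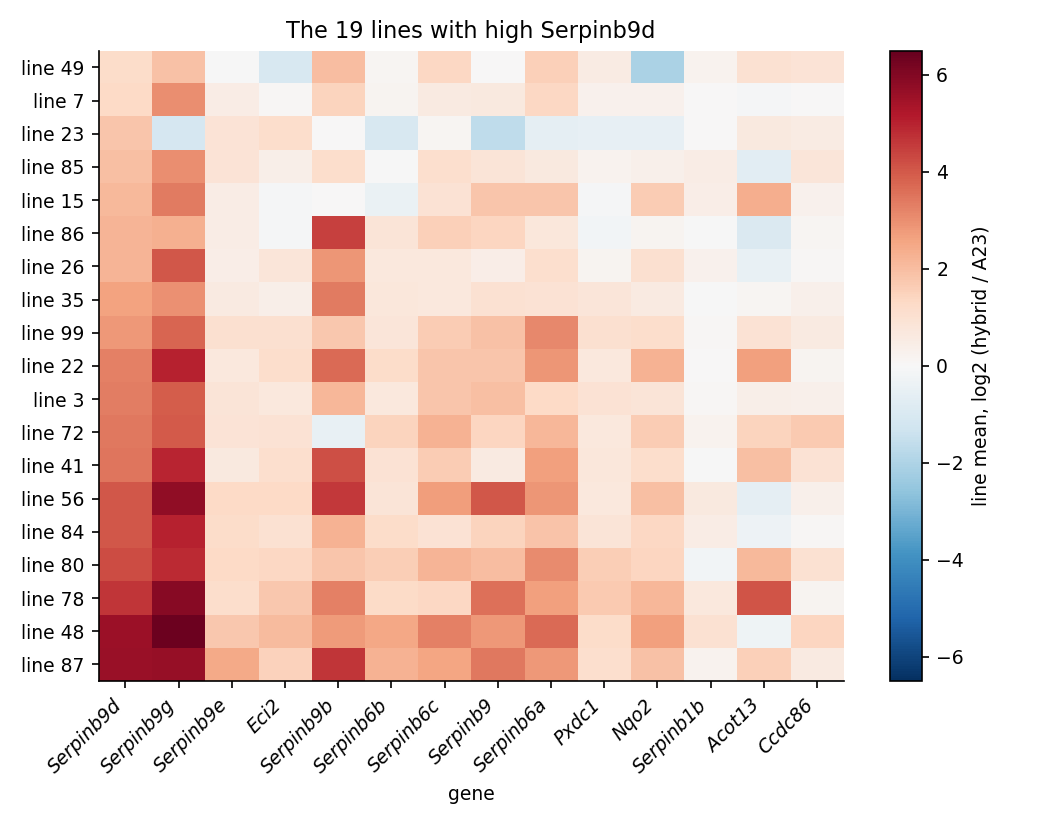
Line means (log2, hybrid over A23, colour scale) of Serpinb9d and the 13 called genes (columns) in the 19 high lines (rows, ordered by Serpinb9d). The lines with the highest Serpinb9d at the foot are red in nearly all columns, line 23 is blue in several, and Acot13 and Ccdc86 vary without that order.

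Among the genes tested, the 10 with the highest Pearson correlation with Serpinb9d over the 99 lines were all called near genes. Pearson's r was 0.867 for Serpinb9g, 0.780 for Serpinb9e, 0.773 for Eci2 and 0.729 for Serpinb6b, and between 0.610 and 0.660 for Serpinb9, Nqo2, Serpinb6c, Pxdc1, Serpinb6a and Serpinb9b. The lowest were Ap5s1 at -0.40 and Nr4a3 and Acvr1b at -0.36, followed by Flywch2 and P2ry14 at -0.35. Rank correlations over the 99 lines were lower, at 0.55 for Serpinb9g, 0.45 for Serpinb9e, 0.32 for Eci2 and 0.35 for Serpinb6b. All these values describe the lines and share with Serpinb9d the arrays and the A23 reference. Within the 19 high lines Pearson's r was 0.860 for Serpinb9e, 0.859 for Serpinb6b, 0.830 for Eci2 and 0.806 for Serpinb9g. It was 0.427 for Serpinb9b and 0.436 for Serpinb1b. Within the 74 low lines it was 0.130 for Serpinb9g and -0.070 for Eci2.

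Lines were also chosen on one array and tested on the other, so that the tested arrays had no part in choosing the lines, although the list of neighbours was drawn up with earlier results known. With lines chosen on replica 1 (23 high and 60 low, of which 17 high lines were among the 19), replica 2 gave 1 higher gene of 16503, 0.00606%, and 0 lower. That gene was Serpinb9g, at 2.60 ± 0.36 (log2, SE) with a limma adjusted p of 5.1e-06. Of all 41 measured near neighbours, called or not, 18 were higher and 0 lower before adjustment, where 4.71% of all genes were higher and 3.64% lower, and their median difference was 0.24 against 0.01 over all genes.

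With lines chosen on replica 2 (16 high and 76 low, all 16 among the 19), replica 1 gave 10 higher genes, 0.0606%, and 0 lower, and all 10 were near genes. Serpinb9g reached 3.85 ± 0.40 (adjusted p = 1.4e-11) and Eci2 1.10 ± 0.14 (adjusted p = 2.0e-07). Of the 41 near neighbours, 12 were higher and 0 lower before adjustment, where 1.63% of all genes were higher and 2.98% lower, and the median difference was 0.13 against -0.03 over all genes. Acot13 and Ccdc86 did not pass in either direction. The fits differ both in the lines chosen and in the replica measured, as the plot of separately chosen lines shows, and were not compared with each other. Over the same 19 and 74 lines, Serpinb9g differed by 3.53 on replica 1 and by 3.83 on replica 2, and Eci2 by 1.12 and 0.49.

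**Figure D5:**
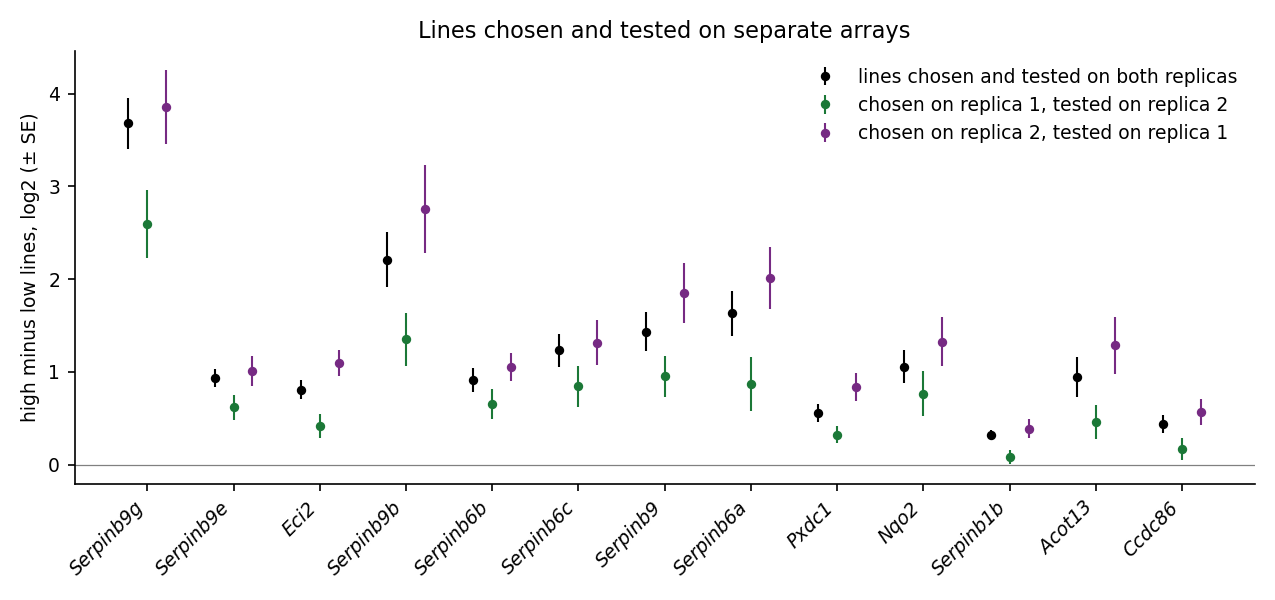
High minus low difference (log2, y axis, bars are ± SE) of the 13 called genes (x axis) with lines chosen and tested on both replicas (black), chosen on replica 1 and tested on replica 2 (green), and the reverse (purple). Serpinb9g is at 2.60 in green and 3.85 in purple, and Serpinb1b is near 0 in green.

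The width of the arrays was compared because lines chosen for a high value could have wider arrays. The SD of log2 ratios over genes averaged 0.912 ± 0.259 in the high lines and 0.893 ± 0.210 in the low lines (SD, n = 19 and 74). The difference of 0.0189 had a p of 0.717 in a two-sided permutation test with 100000 resamples. Over all genes, the share above 1 was 6.10% at the median of the high lines (1.41 to 13.6%) and 5.44% in the low lines (1.32 to 24.1%). The arrays of a line resembled each other weakly: with gene means removed within each orientation, the second array of a line was the best match of its first in 28 of 99 lines, 7 of them high and 20 low.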

How the data were processed

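The authors deposited 1 table of log10 ratios of Cy5 over Cy3 for 202 2-colour arrays, per the labels. How background was corrected and ratios were normalised is not stated in the labels, and without intensities the precision depends on how many arrays there are. Of 20868 features, 17786 had 1 gene symbol in the supplied probe annotation, 16 had several and 3066 had none, which gave 16504 genes. No value was missing (0), and the scale ended at a log10 ratio of -2.

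Per the labels, replica 1 carried the hybrid in Cy3, so its sign was turned. The log10 ratios were converted to log2, features of a gene averaged, and both arrays of a line averaged. High and low lines were compared with limma 3.58.1 in R 4.3.3, with Benjamini-Hochberg adjustment over 16503 genes. The script was tested on simulated data. Replica numbers mark dye orientation in every line, and the fit with orientation as a term and line as a random block (consensus correlation 0.0411) is given beside the main counts.

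The members and lists were chosen with earlier results of these data known, and the middle and far lists were added after the table had been opened. Genes named are those of the cluster list, those called, those with the highest and lowest correlation, and, chosen after their values were seen, a few that did not pass. Naming the nearest genes by position was not done, as positions were not used here.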

Additional observations from a re-analysis of the deposited data

Results flagged for a closer look

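Among 3082 features without a single gene symbol, which no comparison of genes used, 1 (0.0324%) was higher in the high Serpinb9d lines in a limma fit over all features. Feature 9164 differed by 0.294 ± 0.064 (log2, SE, adjusted p = 0.0229). Its line means ran from -0.13 to 0.80 in the high lines, with a median of 0.21, and from -0.58 to 0.54 in the low lines, with a median of -0.11. No line of either group reached 1, and which gene it measures is not given in the annotation used here.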

How the results depend on the processing

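The 13 calls became 8 (7 higher, 1 lower) on replica 2 arrays alone and 11 on replica 1 arrays alone, and 11 to 14 when each high line was left out in turn; near genes among them numbered 7 to 11. Genes in none of the chromosome lists, 1 before, numbered 0 to 3 under these omissions. The replicate block gave 22 calls, 9 of them outside the chromosome lists, and array weights 24 and 12. With Serpinb9d as a continuous term, 6 genes outside the lists were called. That number was 0 with scaled arrays, with a limit of 1.5 for high lines, with a difference of at least 0.5, and with lines chosen on replica 1 or on replica 2 and tested on the other. Lines chosen on replica 1 and tested on replica 2 gave 1 call, a near gene. Replica arrays alone and separate choice use fewer arrays per line; the cause of the other changes was not tested. Serpinb9g passed in all 35 alternatives, Acot13 failed in 15 and Ccdc86 in 18. Reversals concerned uncalled genes: Serpinb1a to -0.056 (scaled) and -0.041 (weights), Serpinb1c to -0.040 (scaled), -0.019 (weights) and -0.080 (chosen on replica 1), and Serpinb9c to -0.14 (scaled), -0.010 (without line 3) and -0.025 (without line 99). Serpinb1c was -0.16 on replica 2 alone and 0.35 on replica 1 alone, and Serpinb9c -0.22 and 0.38. Treating the lines between as low, dropping line 42, values at the floor or exact zeros, and testing single features left 12 or 13 calls. Keeping only high lines above 1 in both replicas, chosen after seeing the data, gave 12 calls, 11 of them near genes. For the width of arrays, the median absolute deviation gave a difference of 0.0199 (permutation p = 0.600). Bands of 10 and 50 measured genes around Serpinb9d were not run, as positions were not used here.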

Other observations

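Genes outside the chromosome lists that passed only in some alternatives, and are named after their values were seen, are given here as values. As positions were not used, a gene outside the lists, such as H2bc4, may still lie on the chromosome of Serpinb9d. With line as a random block, Slc7a5, the light chain of an amino acid exchanger, Saa1, an acute-phase protein, Cpsf7, a factor of messenger RNA 3′-end processing, H2bc4, a histone, and Serinc1 were called higher, and Fzd2, a Wnt receptor, Sipa1, a regulator of Rap proteins, and Thbs3, a thrombospondin, lower. On line means none of these passed: Slc7a5 differed by 0.58 ± 0.15 (log2, SE, limma adjusted p = 0.245), Saa1 by 0.81 ± 0.22 (adjusted p = 0.321), Fzd2 by -0.67 ± 0.17 (adjusted p = 0.129) and Sipa1 by -0.44 ± 0.11 (adjusted p = 0.0756). Slc3a2, the heavy chain that pairs with Slc7a5, passed in no alternative and is named only for that pairing. It differed by 0.84 ± 0.24 (limma adjusted p = 0.392), and whether the pair changed for a shared reason was not tested.

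Some lines outside the high group had high values of single cluster genes. Among the lines between, line 29 had Serpinb9 at 2.66 and Serpinb9g at 1.80 with Serpinb9d at 0.63. Low line 43, which had the lowest Serpinb9d of all lines at -0.89, held Serpinb9b at 2.71, Serpinb9 at 1.17 and Serpinb6b at 1.13. Low line 27 held Serpinb6a at 2.31, Acot13 at 1.58 and Serpinb9g at 1.52.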
